A study of Mus musculus with 20 samples.

Results

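The genes followed here were 10 transcripts of the mouse embryonic stem cell that encode core or naive pluripotency factors. They were read in a control line and an HPRT knockdown line, sampled on the same days of differentiation. The 10 were chosen by name, with no threshold on a value but with earlier results of these data known. The set was Pou5f1, Nanog, Zfp42, Esrrb, Klf2, Klf4, Tfcp2l1, Tdgf1, Utf1 and Dppa5a. By that symbol 9 of the 10 were found in the deposited data and Tfcp2l1 by its Gene ID, 81879, under its older symbol Tcfcp2l1, among 37561 genes listed in every table. All 10 passed the filter on low genes, as did 13610 genes in all.

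Both lines were made from ESD3 cells, an embryonic stem cell line of strain 129s2/SvPas kept on feeder layers of mouse embryo fibroblasts. The control line carried a short hairpin RNA against luciferase and the knockdown line a short hairpin RNA against HPRT, the purine salvage enzyme that is lost in Lesch-Nyhan disease, each brought in by a viral vector followed by puromycin selection. Spherical neural masses (SNM), the neural precursor aggregates of this protocol, were taken toward dopaminergic neurons, with libraries made on each of days 0 to 4 and at intervals of 2 days after that, until day 14. There was 1 line of each kind, which gave 1 library per day from pooled RNA, so the 20 libraries hold no replicate within a day, and all days of a line come from that one line. The question put to these genes was whether the knockdown line carried them at the level of the control line as the neural course ran, and on which days.

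Embryonic stem cells hold their state through a small set of transcription factors that activate one another and their own genes. Pou5f1 (Oct4), with Nanog, forms the core of that circuit. Esrrb, Klf2, Klf4 and Tfcp2l1 are naive factors, tied to the ground state that leukaemia inhibitory factor (LIF) sustains, while Zfp42 (Rex1), Dppa5a and Utf1 are markers of undifferentiated cells, and Tdgf1 (Cripto) is a co-receptor for Nodal. In neural differentiation these genes are normally switched off as progenitor and neuron genes come up.

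On the NCBIM37 assembly (mm9, the build the reads were aligned to), GENCODE placed Pou5f1 on chromosome 17, 35642982 to 35647721, plus strand, and Nanog on chromosome 6, 122657507 to 122664651, plus strand. Zfp42 lay on chromosome 8, 44380422 to 44392363, minus strand, Klf2 on chromosome 8, 74842932 to 74845555, plus strand, and Klf4 on chromosome 4, 55540013 to 55545347, minus strand. Esrrb was on chromosome 12, 87702067 to 87862578, plus strand, Tfcp2l1 on chromosome 1, 120524522 to 120581744, plus strand, and Utf1 on chromosome 7, 147129688 to 147131011, plus strand. Both genes of chromosome 9 were on the minus strand, Tdgf1 at 110842114 to 110848662 and Dppa5a at 78214859 to 78215984. Of the 50-base stretches in the exons of Dppa5a, 64.6% also occurred at another place in the genome, against 34.9% for Zfp42, 24.2% for Tdgf1, 20.6% for Nanog, 17.8% for Pou5f1 and 12.6% for Klf4. The share was 0.666% for Esrrb, 0.492% for Tfcp2l1 and 0% for Klf2 and Utf1. How reads with more than 1 match were counted is not given in the sources used here. The effect on the levels of the first 6 genes named is thus not known, and the share itself does not measure it.

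Promoter windows of 250 bases before a RefSeq start (GRCm38.p6) were available for 9 of the 10 genes. Of these windows, 3 are shown because their genes were among those that moved together in the knockdown line and because each holds a motif that pluripotency factors are known to bind. Capitals mark TTTGCAT, the core of the octamer read by Pou5f1, and GGGCGTG, a Klf-type motif, searched on both strands.
Nanog, chr6:122707239-122707488, plus strand: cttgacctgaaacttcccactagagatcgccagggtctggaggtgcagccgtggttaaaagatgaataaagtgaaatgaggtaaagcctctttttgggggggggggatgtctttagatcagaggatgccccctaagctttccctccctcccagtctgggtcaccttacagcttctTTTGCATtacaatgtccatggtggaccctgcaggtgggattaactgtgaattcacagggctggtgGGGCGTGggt
Zfp42, chr8:43307010-43307259, minus strand: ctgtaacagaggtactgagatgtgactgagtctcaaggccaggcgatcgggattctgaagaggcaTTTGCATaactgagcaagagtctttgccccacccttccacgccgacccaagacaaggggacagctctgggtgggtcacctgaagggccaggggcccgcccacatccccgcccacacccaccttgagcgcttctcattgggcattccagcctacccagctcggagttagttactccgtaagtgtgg
Tdgf1, chr9:110946159-110946408, minus strand: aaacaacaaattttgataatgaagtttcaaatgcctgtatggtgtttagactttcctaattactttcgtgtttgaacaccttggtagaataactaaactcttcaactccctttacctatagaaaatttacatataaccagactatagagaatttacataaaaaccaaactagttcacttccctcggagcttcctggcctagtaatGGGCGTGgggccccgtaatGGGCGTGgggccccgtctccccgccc
Counted back from the RefSeq start that follows the window shown, TTTGCAT lay at -75 in Nanog and at -185 in Zfp42. GGGCGTG lay at -10 in Nanog and at -45 and -26 in Tdgf1. In a second, overlapping Nanog window, from another start, TTTGCAT lay at -151 and GGGCGTG at -86. TTTGCAT was in 3 of the 12 windows of these genes (2 of the 9 genes, Nanog and Zfp42) and in 4.12% of all 32851 promoter windows. GGGCGTG was in 4 of the 12 (3 of the 9 genes, Nanog, Tdgf1 and Tfcp2l1) and in 7.55% of all windows. The Esrrb-type motif AAGGTCA was in none of the 12 windows of these genes and in 4.08% of all windows. A match describes letters in the window and is no measured binding.

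Values are log2 ratios of the knockdown library over the control library of the same day, as the deposited table of that day gives them, unless a level or a step is named. The median ratio over all 13610 genes lay between -0.02 and 0.01 on each day, and the size factors of the 20 libraries ran from 0.826 to 1.59 times that of the median library. Hprt, the targeted gene (chromosome X, 50341314 to 50374836, plus strand), was lower in the knockdown library on all 10 days, with a mean ratio of -4.00 ± 0.89 (SD, 9 days without day 6; limma adjusted p = 1.4e-05). Days 1 and 6 are set apart below. Day 6 was left out of the main limma tests, since the study set it aside as discrepant, and day 1 held the lowest ratio of 6 of these genes. All 10 neural progenitor markers and 9 of 10 neuron markers passed the filter on low genes. The filter rests on a typical count, so it gives no level of these markers in a single library.

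The 10 pluripotency factors were all lower in the knockdown line. Over the 9 days, limma with Benjamini-Hochberg adjustment over all 13610 genes called 10 of 10 lower, where 26.3% of all genes were called lower. The mean ratio of Zfp42 was -3.43 ± 2.67 (SD, 9 days; limma adjusted p = 0.00536) and that of Tdgf1 -3.38 ± 2.40 (adjusted p = 0.00331). Their order rests on day 1, when Zfp42 was at the floor of the tables: with that value set at 3 reads its mean was -3.24, and without day 1 the means were -2.65 for Zfp42 and -2.72 for Tdgf1. Klf4 had the mean nearest to 0, -1.06 ± 0.72 (adjusted p = 0.00289). In 9 of the 10 genes the ratio was below 0 on all 9 days, and in Klf4 it was below 0 on 8 of them. With days 1 and 10 also left out, a choice made after seeing the data, limma again called all 10 lower, with means from -2.36 in Tdgf1 to -1.08 in Klf4. With 1 library per line and day the SD is the spread over days, and fewer stem cells in the masses and less RNA of these genes per cell cannot be told apart in bulk RNA.

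**Figure D1:**
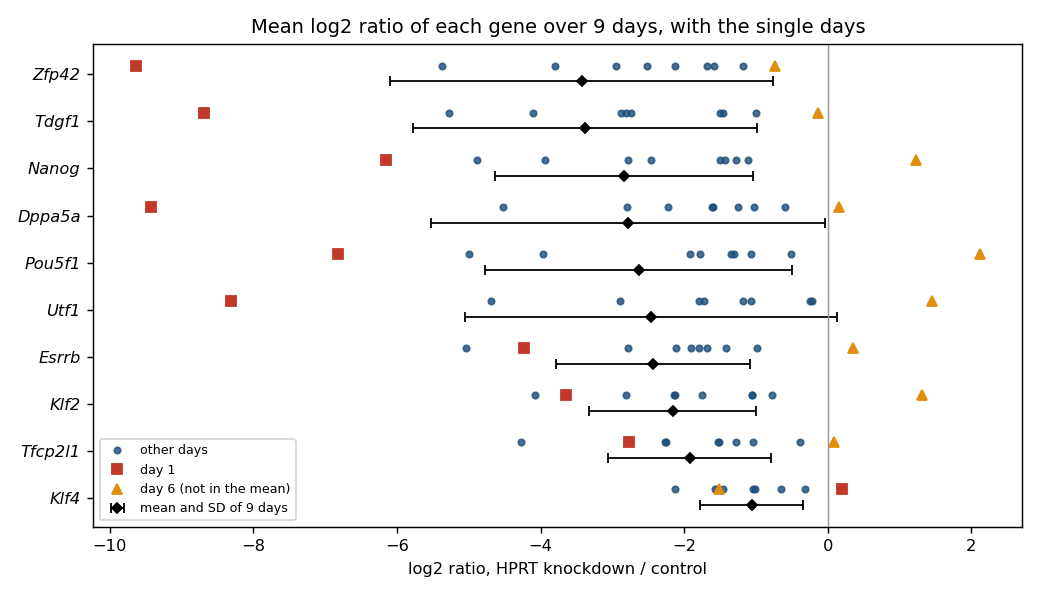
Log2 ratio of HPRT knockdown to control (horizontal axis) for each of the 10 genes (vertical axis). Diamonds and bars are the mean and SD of 9 days, circles are single days, squares are day 1 and triangles day 6, which is not in the mean. Every mean lies left of 0, that of Klf4 nearest to it at -1.06, the means of Zfp42 and Dppa5a hold a day 1 value at the floor, and the day 1 square is the lowest point of the 6 genes Zfp42, Tdgf1, Dppa5a, Utf1, Pou5f1 and Nanog.

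Pou5f1, the core factor without which the pluripotent state is lost, had ratios of -0.51 (day 0), -6.83 (day 1), -3.97 (day 2), -1.06 (day 3) and -1.30 (day 4). Its ratio was 2.13 (day 6), -1.34 (day 8), -5.00 (day 10), -1.91 (day 12) and -1.77 (day 14). It was thus lowest in the knockdown line on days 1, 10 and 2, and higher there than in the control on day 6 alone. The mean was -2.63 ± 2.14 (SD, 9 days; limma adjusted p = 0.00666), and -2.11 ± 1.55 without day 1. On day 1 the rounding of the deposited values placed Pou5f1 at 15.2 to 36.8 normalised reads in the knockdown library and at 1695 to 4117 in the control library.

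Nanog, the partner of Pou5f1 in the core circuit, ran close to it, at -1.11 (day 0), -6.15 (day 1), -3.93 (day 2), -1.28 (day 3) and -1.50 (day 4). From there the ratio was 1.24 (day 6), -1.43 (day 8), -4.89 (day 10), -2.46 (day 12) and -2.78 (day 14). The days on which Nanog was lowest in the knockdown line were the same as for Pou5f1. Its mean was -2.84 ± 1.79 (SD, 9 days; limma adjusted p = 0.00181). In the knockdown library of day 1 it stood at 8.82 to 13.1 normalised reads, so that this ratio rests on few reads, against 650 to 965 in the control. Nanog also had the largest disagreement between tables among the 10 genes, 0.075 on the log2 scale, where Pou5f1 had 0.0027.

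The markers of undifferentiated cells went deepest on day 1. Zfp42, a zinc finger gene used as a marker of naive cells, had ratios of -1.18 (day 0), -9.64 (day 1), -3.80 (day 2), -2.95 (day 3) and -1.58 (day 4). Later it had -0.73 (day 6), -1.67 (day 8), -5.37 (day 10), -2.52 (day 12) and -2.12 (day 14). In all 3 tables that hold the knockdown library of day 1, Zfp42 was at the floor, the value of 1 normalised count to which lower values had been raised. Its counts in the partner libraries did not come out whole. Taken at a floor of 3 reads in that 1 library, Zfp42 was at least 254-fold lower than in the control on day 1, a log2 ratio of -7.99.

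Dppa5a, an RNA-binding protein gene of undifferentiated cells, had a lowest ratio of -9.42 on day 1, a median of -1.61 over the 9 days and a highest ratio of -0.59 on day 4. It too was at the floor in the knockdown library of day 1 in all 3 tables. Against that floor the partner libraries came out as whole reads to within 0.001: 717 reads in the control library of day 1, 368 in the knockdown library of day 0 and 71 in that of day 2. At a floor of 3 reads the gene was at least 218-fold lower than in the control, a log2 ratio of -7.77. Its mean over the 9 days as deposited was -2.78 ± 2.75 (SD; limma adjusted p = 0.0171), with -2.60 when day 1 was set at 3 reads and -1.95 ± 1.25 without day 1. The same gene has the largest share of exonic sequence repeated elsewhere, 64.6%, as given above, and the part of the copies in its values was not tested.

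Tdgf1, the Nodal co-receptor, had a lowest ratio of -8.68 on day 1, a median of -2.81 and a highest ratio of -1.01 on day 8. The tables bracket its count in the knockdown library of day 1 between 0.834 and 1.1 reads, that is 1 read, against 451 in the control. The day 1 ratio was 411-fold, with an exact Clopper-Pearson 95% interval of 73.5 to 16291-fold that covers counting error only. Utf1, a chromatin-bound factor of undifferentiated cells, had a lowest ratio of -8.31 on day 1, a median of -1.73 and a highest of -0.22 on day 4. Its mean was -2.46 ± 2.59 (SD, 9 days; limma adjusted p = 0.0227), the highest adjusted p of the 10, and without day 10 it was -2.18 with an adjusted p of 0.0523, above the threshold of 0.05. On days 0 and 4 Utf1 was within 1.5-fold of the control.

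Of the naive factors, Esrrb, an orphan nuclear receptor, had ratios from -5.04 (day 10) to -0.98 (day 0), with a median of -1.91 and a mean of -2.44 ± 1.35 (SD, 9 days; limma adjusted p = 0.000921). Klf2, a Kruppel-like factor, ranged from -4.08 (day 10) to -0.77 (day 0), with a median of -2.13 and a mean of -2.16 ± 1.17 (limma adjusted p = 0.00081). Tfcp2l1, a naive factor downstream of LIF, ranged from -4.27 (day 10) to -0.38 (day 0), with a median of -1.53 and a mean of -1.92 ± 1.14 (limma adjusted p = 0.0013). These 3 were lowest on day 10 and not on day 1, when they stood at -4.23, -3.65 and -2.76 in that order. They moved on the same days as the core pair, over a smaller range.

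Klf4, the other Kruppel-like naive factor, moved over the narrowest range of the 10. Its ratios were -0.31 (day 0), 0.20 (day 1), -1.02 (day 2), -1.57 (day 3) and -1.53 (day 4). They were -1.52 (day 6), -1.46 (day 8), -2.12 (day 10), -1.04 (day 12) and -0.66 (day 14). On day 1, when 9 of the 10 genes were at least 1.5-fold lower, Klf4 was at 207 to 238 normalised reads in the knockdown library and at 177 to 204 in the control. On day 6 it was lower in the knockdown library, unlike Pou5f1, Nanog, Klf2 and Utf1. Over the 20 libraries its relative log2 level had a Pearson r of 0.49 with the median of the other 9. Each of those 9, taken in the same way, had an r from 0.926 to 0.981. Over the 10 knockdown libraries the r of Klf4 was -0.16, and the others ran from 0.863 (Klf2) to 0.980 (Utf1). Over the 10 control libraries the r of Klf4 was 0.71, and the others ran from 0.639 (Pou5f1) to 0.960 (Zfp42). These points share libraries and tables and are given as a description.

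**Figure D2:**
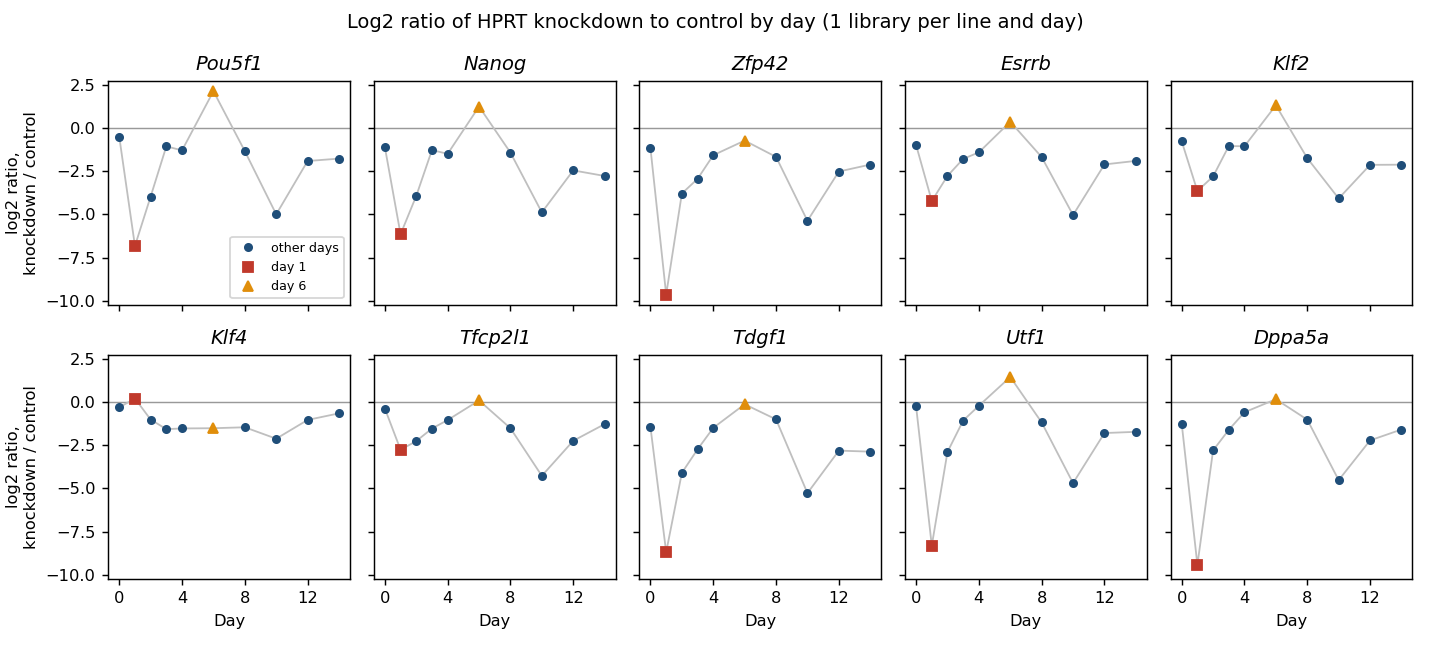
Log2 ratio of HPRT knockdown to control (vertical axis) against day (horizontal axis), 1 panel per gene and 1 point per day. Squares mark day 1 and triangles day 6. The ratio falls to -6.83 in Pou5f1 and -9.64 in Zfp42 on day 1 and lies between -5.37 and -4.08 for 9 genes on day 10, while Klf4 stays between -2.12 and 0.20.

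Counted by day at a threshold of 1.5-fold, with no test since each day has 1 library per line, the knockdown library was lower on day 0 for 6 of the 10 genes, where 19.4% of all genes were. Outside days 1 and 6, on days 2, 3, 8, 10, 12 and 14 all 10 were at least 1.5-fold lower, against 17.1%, 15.7%, 13.7%, 19.1%, 18.6% and 18.9% of all genes in that order, and on day 4 the count was 9 of 10, against 16.3%. The median of the 10 ratios was -0.88 (day 0), -2.85 (day 2), -1.55 (day 3) and -1.36 (day 4). It was -1.45 (day 8), -4.79 (day 10), -2.18 (day 12) and -1.84 (day 14). The median was thus below 0 already on day 0, though Pou5f1, Utf1, Tfcp2l1 and Klf4 were then within 1.5-fold of the control.

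On day 1, 9 of the 10 were at least 1.5-fold lower, where 24.3% of all genes were, and the median ratio was -6.49, with a range from -9.64 to 0.20. In order of depth they stood as Zfp42, Dppa5a, Tdgf1, Utf1, Pou5f1, Nanog, Esrrb, Klf2 and Tfcp2l1, with Klf4 last. The first 4 cannot be ranked, since Utf1 at -8.31 lies beyond the floor bounds of Zfp42 (-7.99) and Dppa5a (-7.77) and within the counting interval of Tdgf1, which runs from -6.20 to -13.99.

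Day 6 went the other way for part of the set. Pou5f1 (2.13), Utf1 (1.45), Klf2 (1.31) and Nanog (1.24) were higher in the knockdown library by 1.5-fold or more, 4 of 10 where 10.9% of all genes were. Zfp42 (-0.73) and Klf4 (-1.52) were lower by 1.5-fold or more, 2 of 10 where 15.2% of all genes were. Esrrb (0.36), Dppa5a (0.16), Tfcp2l1 (0.09) and Tdgf1 (-0.13) were within 1.5-fold of the control. Both lines took part in this for Pou5f1: from day 4 to day 6 it changed by -0.95 in the control and by 2.50 in the knockdown line.

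The course within each line was read from the tables of consecutive days. In the control line none of the 10 genes went further below its day 0 level than -1.11 on the log2 scale, which was Tdgf1 on day 6. Relative to day 0, the level of Pou5f1 was 1.34 on day 1, 0.61 on day 12 and -0.74 on day 14. On day 12 all 10 stood above their day 0 level, from 0.61 for Pou5f1 to 1.51 for Tfcp2l1. A dip at day 6 and a drop at day 14 were the main features: from day 4 to day 6, 5 of 10 fell by 2-fold or more (3.02% of all genes), from day 6 to day 8 all 10 rose by 2-fold or more (5.51% of all genes), and from day 12 to day 14, 9 of 10 fell by 2-fold or more (3.15% of all genes). This last step was -1.35 for Pou5f1, -1.48 for Nanog, -1.59 for Esrrb and -1.85 for Zfp42 on the log2 scale, against -0.63 for Klf4.

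**Figure D3:**
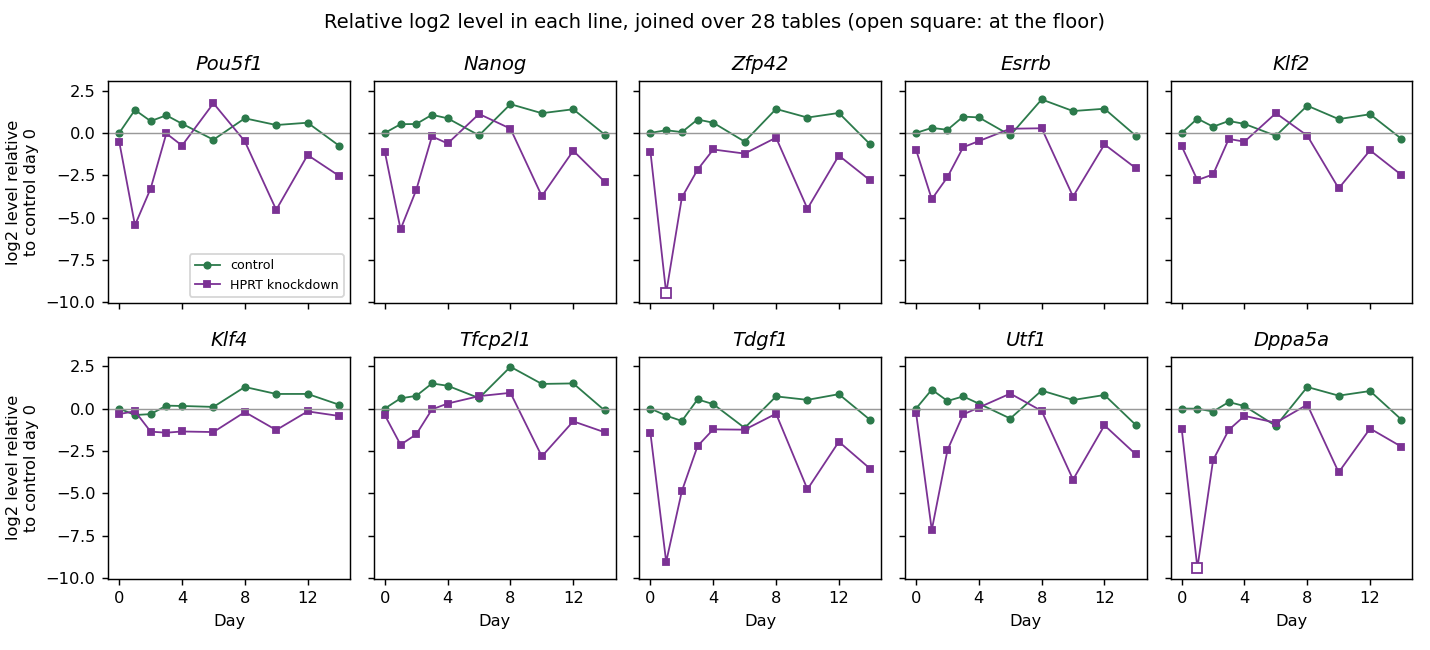
Log2 level relative to the control library of day 0 (vertical axis) against day (horizontal axis) in the control line (circles) and the HPRT knockdown line (squares), joined over all 28 tables, 1 library per point. Open squares mark libraries at the floor. The control line stays within a narrow band, while the knockdown line drops far below it on days 1 and 10 in 9 of the 10 genes. Klf4 has no drop on day 1.

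In the knockdown line all of these genes but Klf4 moved over a wider range than in the control line. From day 0 to day 1, 9 of 10 fell by 2-fold or more, where 10.1% of all genes did; the steps were -8.38 in Zfp42, -8.26 in Dppa5a, -7.58 in Tdgf1 and -6.89 in Utf1, of which the first 2 end at the floor. Pou5f1 stepped by -4.91, Nanog by -4.55, Esrrb by -2.90, Klf2 by -1.98, Tfcp2l1 by -1.73 and Klf4 by 0.18. The 4 genes named first stepped further down than the core pair, and the core pair further than the naive factors.

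Most of the 10 genes were higher again on days 2 and 3. Each step sets 1 library against 1 other, and the part of single collections in it was not tested. From day 1 to day 2, 7 of 10 rose by 2-fold or more (4.5% of all genes), and from day 2 to day 3, 9 of 10 did (6.07% of all genes), Pou5f1 by 2.16 and then 3.26 and Nanog by 2.39 and then 3.18. On day 3 Pou5f1 stood at 0.51 and Zfp42 at -1.19 relative to its own day 0 level on the log2 scale. The one gene against the current was Klf4, which stepped by -1.21 from day 1 to day 2. Around day 6 the genes parted: from day 4 to day 6 Nanog stepped by 1.75 and Klf2 by 1.69, while Zfp42 stepped by -0.24. From day 6 to day 8 Pou5f1 stepped by -2.27, Klf2 by -1.35 and Utf1 by -1.05, while Klf4 stepped by 1.16 and Dppa5a by 1.05.

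A second fall lay between the single libraries of days 8 and 10. All 10 fell by 2-fold or more, where 7.8% of all genes did, with log2 steps of -4.05 in Pou5f1, -3.98 in Nanog, -4.20 in Zfp42, -4.03 in Esrrb and -4.46 in Tdgf1 and of -1.07 in Klf4. All 10 then rose by 2-fold or more from day 10 to day 12, where 4.12% of all genes did, with steps from 1.10 in Klf4 to 3.23 in Pou5f1. From day 12 to day 14, 8 of 10 fell by 2-fold or more (2.62% of all genes), so the last step was a fall in both lines. Between its lowest and highest day in the knockdown line, Nanog spanned 6.92 log2 units, and in the control line 1.87. For Klf4 the span was 1.27 in the knockdown line and 1.63 in the control.

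**Figure D4:**
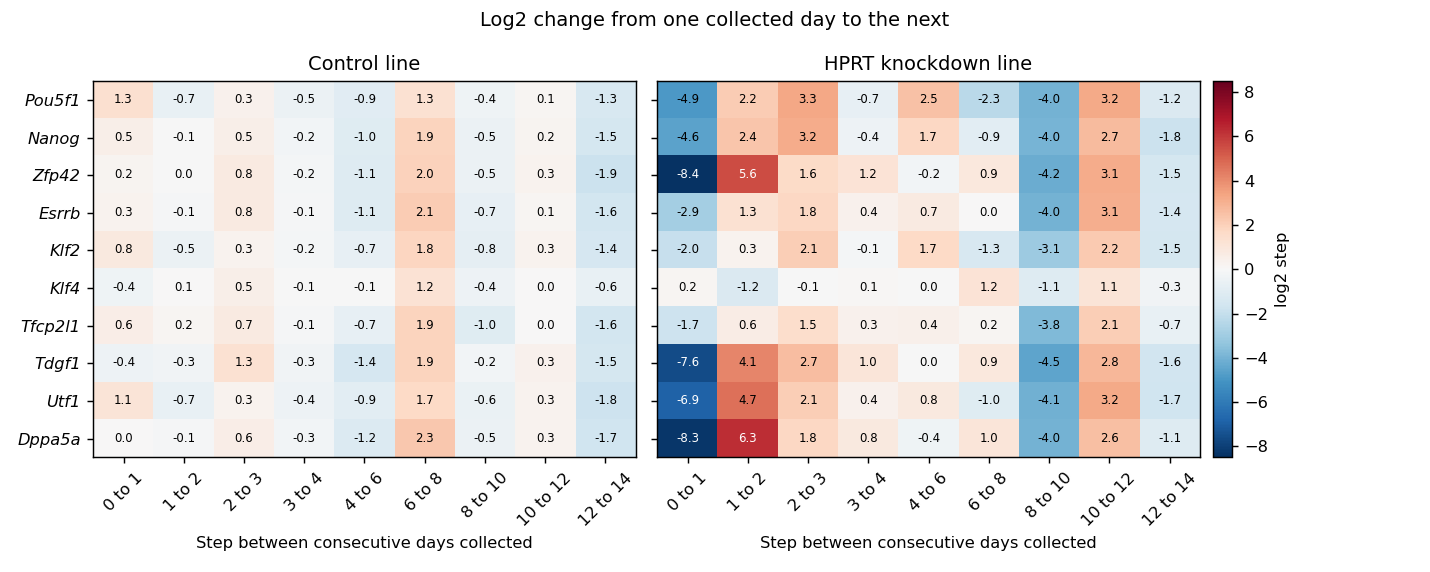
Log2 change from one collected day to the next (colour and printed value) for the 10 genes (rows) and the 9 steps (columns) in the control line, left, and the HPRT knockdown line, right. In the knockdown line the columns of days 0 to 1 and 8 to 10 are falls and those of days 2 to 3 and 10 to 12 are rises for 9 or 10 genes, while the control line shows its largest steps from day 6 to day 8 and from day 12 to day 14.

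Straight trends over the course were tested next. By limma 0 of the 10 were called for a slope of the ratio on day (0 at an unadjusted p under 0.05), where 14% of all genes were. The slopes ran from -0.06 to 0.12 log2 units per day, with limma adjusted p from 0.485 to 0.991. In the knockdown line 0 of the 10 were called for a trend (0 at an unadjusted p under 0.05), where 13.1% of all genes were. The SE of these knockdown slopes ran from 0.04 in Klf4 to 0.18 in Dppa5a, in log2 units per day. A slope near its SE could not be told from 0, so a gene not called may still have had a slope. The control line gave 0 of 10 called, where 43.6% of all genes were, and 1 at an unadjusted p under 0.05, Klf4, whose slope was 0.07 ± 0.03 (SE; limma adjusted p = 0.0679). The control result rests on day 14: without that library 6 of the 10 were called, all upward, namely Nanog, Zfp42, Esrrb, Klf4, Tdgf1 and Dppa5a, with slopes from 0.10 to 0.13 per day, where 37.4% of all genes were called. Without day 0, Pou5f1 alone of the 10 was called, downward (-0.09; 46% of all genes), and without day 8, Klf4 alone, upward (0.06; 41% of all genes).

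Other genes of the pathway were taken from lists written from general knowledge, with earlier results of these data known. Of 28 other naive and shared pluripotency genes, 27 passed the filter. Limma called 24 of them lower and 2 higher, where 26.3% of all genes were called lower and 26.2% higher. The median mean ratio of the 27 was -2.36, beside -2.55 for the 10 factors and 0.01 over all genes tested. Those with the largest mean ratios were Lefty2, a Nodal antagonist, at -3.39 ± 2.43 (SD, 9 days; limma adjusted p = 0.00347), Fbxo15 at -3.11 ± 2.32 (adjusted p = 0.00432) and Dppa3 at -3.08 ± 1.90 (adjusted p = 0.00159). The median of these genes was -6.06 (day 1), 0.69 (day 6) and -4.15 (day 10). The median of the wider set thus moved on the same days, but not every gene did. On day 10, 24 of the 27 were at least 1.5-fold lower, where 19.1% of all genes were, and 1 was higher. The highest ratio in the list was 1.12 (day 10), 1.05 (day 12) and 1.57 (day 14). These values were also the highest among the neural progenitor markers, and Sox2 is the gene on both lists.

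Of 12 primed and formative genes, which mark the later epiblast-like state, 11 passed the filter. Of these, 7 were called lower and 0 higher, with a median of -1.56, where 26.3% of all genes were called lower and 26.2% higher. Nodal, the ligand that Tdgf1 serves, had the largest mean ratio, -3.33 ± 2.15 (SD, 9 days; limma adjusted p = 0.00202), with -7.56 on day 1 and 1.20 on day 6. Fgf15 followed at -2.21 ± 0.96 (adjusted p = 0.000275) and Lin28b at -1.93 ± 1.30 (adjusted p = 0.00265). On day 1 the median of the 11 was -2.16 and that of the 10 factors -6.49.

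The LIF and STAT3 pathway, which sustains naive factors in culture, had 0 of its 10 genes called lower and 4 higher, with a median of 0.27, where 26.3% of all genes were called lower and 26.2% higher. Stat3 itself was higher by 0.98 ± 0.15 (SD, 9 days; limma adjusted p = 1.3e-05), above the control on all 9 days, the narrowest spread of the genes named here; on day 6 its ratio was 0.01. Jak2 was higher by 0.80 ± 0.32 (adjusted p = 0.000292) and Socs3, a feedback inhibitor induced by STAT3, by 0.66 ± 0.41 (adjusted p = 0.00245). Of 8 repressors of pluripotency genes 3 were called lower and 0 higher, with a median of -0.12: Nr6a1, which silences Pou5f1, at -1.39 ± 1.05 (adjusted p = 0.0048), Nr2f1 at -0.58 ± 0.28 (adjusted p = 0.000834) and Mbd3 at -0.21 ± 0.21 (adjusted p = 0.0457). The call of Mbd3 was lost when any single one of days 0, 1, 3, 4, 8, 12 and 14 was left out, with limma adjusted p up to 0.0926, as well as with day 6 kept (0.0559) and in the unpaired test (0.320).

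**Figure D5:**
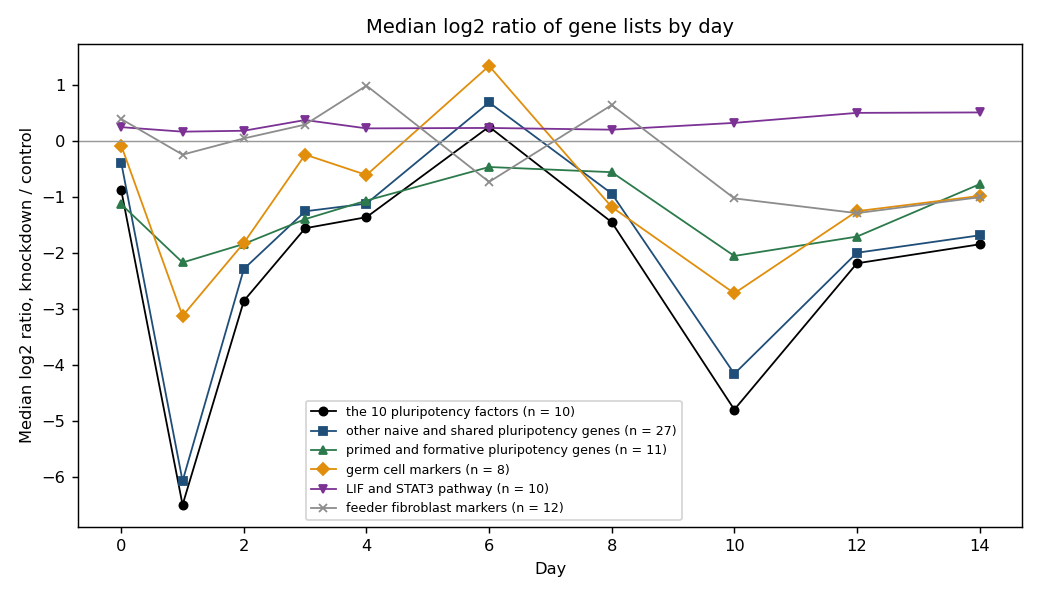
Median log2 ratio of HPRT knockdown to control (vertical axis) against day (horizontal axis) for the 10 pluripotency factors and 5 other gene lists, counting genes that passed the filter. The factors, the other pluripotency genes and the germ cell markers dip on days 1 and 10 and are above 0 on day 6, while the LIF and STAT3 pathway stays between 0.17 and 0.51.

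Markers of other cells were set beside these values. Germ cell markers moved with the factors: 8 of 10 passed the filter, 6 were called lower and 0 higher (median -1.56), and their median ratio was -3.12 (day 1), 1.34 (day 6) and -2.71 (day 10). Tfap2c, which germ cells and stem cells share, averaged -2.10 ± 2.07 (SD, 9 days; limma adjusted p = 0.0169; 0.0655 with day 6 kept and 0.0696 without days 1, 6 and 10), Ddx4 -1.81 ± 0.95 (adjusted p = 0.000737) and Piwil2 -1.79 ± 1.76 (adjusted p = 0.0167). Their part in the result was not tested, and a summed level of the list was not computed, since levels were bracketed for the 10 factors alone. Feeder fibroblast markers, all 12 of which passed the filter, had 2 called lower (Lum at -1.07 and Postn at -0.70). A further 2 were called higher, Pdgfra at 0.73 among them, where 26.3% of all genes were called lower and 26.2% higher. The median ratio was 0.40 (day 0), -0.24 (day 1), 0.05 (day 2), 0.30 (day 3) and 0.99 (day 4). It was -0.73 (day 6), 0.65 (day 8), -1.02 (day 10) and -1.28 (day 12), and negative on day 14. On days 4 and 8, 8 and 7 of the 12 were at least 1.5-fold higher. The share of all genes that were higher was not computed for those days, so these counts have no background. On days 6 and 10, 7 of the 12 were at least 1.5-fold lower, where 15.2% and 19.1% of all genes were. On day 12, 8 of the 12 were at least 1.5-fold lower, and 9 on day 14, where 18.6% and 18.9% of all genes were. The part of the feeder markers in the result was not tested. Lum was not called without day 10, 12 or 14 (limma adjusted p = 0.0588, 0.0598 and 0.0518), and the unpaired limma test called neither Pdgfra nor Postn (adjusted p = 0.188 and 0.241).

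Neural progenitor markers were called lower for 2 of 10 (Pax6 at -1.36 and Hes5 at -0.99) and higher for 3, Sox9 at 0.67 among them, both near the shares over all genes (26.3% lower and 26.2% higher). Their median ratio was 0.33 (day 1), -0.77 (day 6) and -0.30 (day 10), and on day 6, when 4 of the factors were higher, 7 of the 10 were at least 1.5-fold lower, where 15.2% of all genes were. 1 of the 10 markers, Sox2, is also among the shared pluripotency genes. Hes5 was not called by the unpaired limma test (adjusted p = 0.0520). Neuron markers were called lower for 5 of 9 and higher for 0, with a median mean ratio of -1.04 and the lowest means in Stmn2 (-2.01), Elavl4 (-1.99) and Dcx (-1.99). Of 12 endoderm and mesoderm markers 6 passed the filter, with 2 called lower (Sox17 at -1.89 and Eomes at -1.39) and 2 higher. Sox17 was not called when any single one of days 0, 1, 2, 3, 4 and 10 was left out (limma adjusted p = 0.0549 to 0.107). T, the mesoderm factor Brachyury, was higher by 3.48 ± 1.13 (SD, 9 days; limma adjusted p = 7.28e-05), on all 9 days.

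The 5 genes outside the set whose relative level over the 20 libraries was most like the median of the 10 factors were Lefty2 (Pearson r = 0.990), Rbmxl2 (0.987), Fbxo15 (0.978), Gdf3 (0.972) and Morc1 (0.970). Their mean ratios ran from -3.39 in Lefty2 to -2.61 in Morc1. On day 6 Gdf3, a ligand related to Nodal, was higher in the knockdown library (1.76), as Pou5f1 was, whereas Rbmxl2 (0.004) and Morc1 (0.05) were near 0.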

How the data were processed

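The 20 libraries, 10 per line and 1 per day, were grouped by the labels. Per the study's methods they were sequenced for 50 cycles, aligned by ELAND in CASAVA 1.8.2 to NCBI37/mm9, counted per gene in Avadis NGS and normalized with DESeq by the authors. Each of the 28 tables deposited by the authors holds log2 values of 2 libraries, less the mean of the pair, so a pair of values gives a ratio and no level. Tables were normalized separately, and levels set across them join such tables. Values at or below 1 normalized count had been raised to 1. Read totals were not used here, and 0 columns were left out as unmapped.

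Differences of the 2 columns were taken with Python 3.11.15. A gene passed the filter when the rounding step of its values corresponded to a typical log2 count of at least 4; 13610 genes did. limma 3.58.1 was fitted to the 9 daily ratios without day 6 (intercept, or slope on day) and to levels added up from consecutive-day tables, at an adjusted p of 0.05; scripts were tested on simulated data. Both libraries of a day were taken as a pair: their deviations correlated across genes at r = 0.144 to 0.422 on 8 days and -0.0091 on day 0. Normalised reads were bracketed from rounding steps and from what 1 read was worth in each table. Levels and intervals cover counting and rounding error only, and p-values measure the spread between days, not between cultures. Members and lists were chosen with earlier results of these data known; genes named from other lists were the 3 called genes with the largest mean ratio, and like genes the 5 with the highest r.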

Additional observations from a re-analysis of the deposited data

Results flagged for a closer look

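Each of the 10 genes was examined for a day far from the other 9, in the ratio and in the level of each line, which gives 30 groups of 10 days; chance flags about 1 in 20 such groups. In 5 of them the lowest day stood further from its neighbour than the 95% limit of Dixon's test allows (a gap of 0.466 of the range), and each time it was the knockdown library of day 1. Zfp42 had a ratio of -9.64 and a level of -8.38 relative to day 0 of its line. Dppa5a had a ratio of -9.42 and a level of -8.26, and Tdgf1 had a level of -7.58. Zfp42 and Dppa5a were at the floor in that library, so the depth of their values is set by the floor. Tdgf1 had 1 read there, so the depth of its level rests on that count.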

How the results depend on the processing

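Limma called all 10 factors lower under every alternative tried that tested 10 of them (no filter on low genes, day 6 kept, day 1 left out, tables centred on their median, no replicate block), except without day 10, when 9 were called and Utf1 was not; without 1 day the count was 9 to 10. With the stricter filter 9 were tested and 9 called, since Klf4 did not pass it. The unpaired fit (no replicate block) called 10 of 10, and exact two-sided permutation of the signs of the 9 daily ratios also gave 10. Of 179 combinations of a factor and an alternative 178 kept direction and side of the threshold, 1 lost it and 0 reversed. Day 6 was already out of the main fit. Leaving out day 1 and leaving out days 1 and 6 were thus the same fit, and both are counted. Setting day 1 at 3 reads changed the ratios of Zfp42 and Dppa5a only, and was no separate check of the other factors. After seeing the data, days 1, 6 and 10 were left out together and the day 1 ratios of Zfp42 and Dppa5a were set at 3 reads; both gave 10 of 10. The count of trends in the control line, 0, ranged from 0 to 6 when 1 day was left out (6 without day 14, 1 without day 0, 1 without day 8). Over all genes, without 1 day the number called in the knockdown trend ran from 171 without day 14 to 2958 without day 0, beside 1786, with 127 on a log2(day + 1) scale; in the slope of the ratio from 605 to 1657, beside 1911, with 1066 when day 6 was kept and 375 without days 1, 6 and 10; that last choice gave 591 in the knockdown trend. In the control trend the log2(day + 1) scale gave 3929, beside 5933. The cause was not tested. No pseudocount could be varied, since the files hold log2 values.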
